A study of Mus musculus with 8 samples.

Results

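The S100 genes code for small calcium-binding proteins, and 10 genes with S100 in their symbol were examined in mouse regulatory T-cells (Tregs). They were S100a1, S100a3, S100a4, S100a6, S100a8, S100a9, S100a10, S100a11, S100a13 and S100pbp, found by symbol among the 28239 symbols of the deposited count table. Naïve CD4+ T-cells were taken by negative immunomagnetic selection from the spleen of Alox15-/- mice (4) and WT mice (4), all of the C57BL/6 background, and were cultured for 2 days with IL-2, TGF-β and beads that engage CD3 and CD28. Both groups had the same culture. The study's methods describe young adult mice of both sexes, with WT mice and Alox15-/- mice from different suppliers, so supplier and genotype cannot be told apart, and the sex of each library's mouse is not given in the sources used here. RNA was profiled by MACE-seq according to the study's methods, which reads the 3′ ends of transcripts, whereas the labels name a small RNA kit of the same company.

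S100 proteins carry a pair of EF-hand motifs and mostly act as dimers that change shape when calcium is bound and then engage other proteins. Inside cells they bind annexins, myosin and other cytoskeletal or signalling proteins, and some of them are released and bind receptors such as RAGE (Ager) and TLR4. S100A8 and S100A9 form calprotectin, an abundant protein of the neutrophil cytosol. S100A4, S100A6, S100A10 and S100A11 are common in motile and activated cells, including lymphocytes. S100pbp is named for binding S100P and is not itself an S100 protein, so the family proper held 9 of the 10 genes.

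Of the 10 genes, 9 reached 2 CPM (counts scaled to a library of equal size) in 4 or more libraries and were tested among 12700 genes, while S100a3 fell below this filter. The 10 genes were chosen by their symbols with the library-scaled counts of both groups in view, so their differences between the groups are a description with no test. Levels are CPM scaled by the TMM method, and a difference is the log2 fold change of edgeR's quasi-likelihood fit over all tested genes with its standard error (SE). A gene is called when its Benjamini–Hochberg adjusted p in that fit is under 0.05.

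Alox15 (ENSMUSG00000018924.6, chromosome 11, 70344152 to 70352031 in GRCm38, minus strand), the deleted gene, was at 70.5, 69.2, 63.7 and 65.3 CPM in the libraries labelled Alox15-/- 1 to 4 and at 1.88, 2.56, 7.77 and 9.02 CPM in those labelled WT 1 to 4. Its level was thus higher in the libraries labelled Alox15-/- (log2 fold change 3.65, SE 0.299, edgeR adjusted p = 1.08e-05), against what the label says. Reads near the 3′ end check the label only if the deleted part reaches there, and the deleted exons are not given in the sources used here. Groups are therefore named by the labels, and each direction given is that of Alox15-/- labelled over WT labelled libraries. Total counts ranged from 3723151 to 6952596 in the former and from 4810125 to 9538962 in the latter. The T-cell and Treg markers Cd3d, Cd3e, Cd3g, Cd4, Trac, Foxp3, Il2ra, Ctla4, Ikzf2 and Ikzf4 were all detected, with a summed level of 3003 to 3174 CPM in the libraries labelled Alox15-/- and 3117 to 3288 CPM in those labelled WT. The sum hides differences between its genes, though 0 of the 10 were called. Cd4 was lower in all 4 libraries labelled Alox15-/- (mean 268.7 against 335.9 CPM) and Cd3g higher in all 4 (161.3 against 130.1 CPM). The groups overlapped for the other markers, among them Foxp3 (93.4 ± 17.1 against 124.9 ± 47.4 CPM, mean ± SD, n = 4 each).

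The S100 genes are neighbours in the genome. In the GENCODE M21 annotation of GRCm38, 14 S100 genes lie on chromosome 3 between 90511034 and 93564643. S100a1, S100a13, S100a3, S100a4, S100a6, S100a8 and S100a9 lie in this order within 184688 bases, and S100a11 and S100a10 follow after a gap of 2824766 bases. S100pbp lies apart, on chromosome 4 from 129148005 to 129189727 on the minus strand. S100a1 and S100a13 point away from each other, and their RefSeq starts have 104 bases between them. The windows from 250 bases before to 50 bases after the RefSeq start (build GRCm38.p6) are shown for the 4 genes called and for S100a13, whose window also holds the start of S100a1. Capitals mark TATAAA and TTGCNNAA, searched on both strands, and no TGANTCA, the third motif searched, occurs in these windows.
S100a4, chr3:90603520-90603819, plus strand: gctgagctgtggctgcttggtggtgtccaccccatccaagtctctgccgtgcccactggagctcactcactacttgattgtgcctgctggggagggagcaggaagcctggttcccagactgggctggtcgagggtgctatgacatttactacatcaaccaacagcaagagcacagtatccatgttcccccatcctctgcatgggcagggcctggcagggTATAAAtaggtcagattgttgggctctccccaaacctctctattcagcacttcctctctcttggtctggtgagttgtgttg
S100a6, chr3:90612644-90612943, plus strand: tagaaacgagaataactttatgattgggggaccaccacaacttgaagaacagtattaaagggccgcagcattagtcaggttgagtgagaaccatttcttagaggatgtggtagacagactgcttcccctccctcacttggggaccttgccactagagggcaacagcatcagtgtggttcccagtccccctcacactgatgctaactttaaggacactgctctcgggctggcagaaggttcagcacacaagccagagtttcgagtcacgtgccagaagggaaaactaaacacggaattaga
S100a8, chr3:90668821-90669120, plus strand: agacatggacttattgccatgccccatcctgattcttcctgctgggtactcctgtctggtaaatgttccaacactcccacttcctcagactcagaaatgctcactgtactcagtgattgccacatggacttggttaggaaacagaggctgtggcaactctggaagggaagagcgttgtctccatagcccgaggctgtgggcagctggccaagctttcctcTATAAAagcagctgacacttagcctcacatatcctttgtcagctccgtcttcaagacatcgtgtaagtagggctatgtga
S100a9, chr3:90695672-90695971, minus strand: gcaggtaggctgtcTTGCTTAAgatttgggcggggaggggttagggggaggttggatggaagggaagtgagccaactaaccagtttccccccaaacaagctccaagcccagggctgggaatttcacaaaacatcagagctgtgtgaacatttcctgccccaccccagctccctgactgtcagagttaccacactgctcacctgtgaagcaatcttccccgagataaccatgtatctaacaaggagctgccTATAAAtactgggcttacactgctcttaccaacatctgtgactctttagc
S100a13, chr3:90514185-90514484, plus strand: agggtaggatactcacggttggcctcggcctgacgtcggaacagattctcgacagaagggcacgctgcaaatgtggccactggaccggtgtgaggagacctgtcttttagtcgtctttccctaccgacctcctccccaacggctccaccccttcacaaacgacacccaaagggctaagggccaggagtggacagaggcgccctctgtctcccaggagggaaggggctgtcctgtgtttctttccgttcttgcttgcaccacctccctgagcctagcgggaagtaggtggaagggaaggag
The letters TATAAA begin 31 bases before the start of S100a4, 30 bases before that of S100a8, and at the annotated start of S100a9. The S100a9 window also holds TTGCTTAA, a match to TTGCNNAA. Windows of S100a6, S100a13, S100a1, S100a11 and S100pbp hold no TATAAA, which occurs in 13.6% of all 32851 windows of this length, as TTGCNNAA does in 10.8% and TGANTCA, which reads the same on both strands, in 7.81%. The table holds windows for 9 of the 10 genes, S100a10 being the exception. The letters TATAAA also occur in a window of S100a3, which was too low to be tested, and the called gene S100a6 lacks them.

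Of the 9 genes tested, 4 were called, S100a4, S100a6, S100a8 and S100a9, all higher in the libraries labelled Alox15-/-. Over all genes tested, 1.24% were called, 1.05% as higher and 0.197% as lower. The other 5, S100a1, S100a10, S100a11, S100a13 and S100pbp, were not called. The groups did not overlap for S100a1, S100a6, S100a8 and S100a9, each higher in all 4 Alox15-/- labelled libraries. Over all genes tested, 5.25% did not overlap, 2.74% as higher and 2.51% as lower. The fitted log2 fold change was above 0 for the 9 genes and for 48.2% of all genes tested. Since these values were in view when the genes were chosen, nothing is read from the counts. S100a9 passed the filter on low counts through the libraries labelled Alox15-/- alone, and S100a8 through these and 1 library labelled WT.

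**Figure D1:**
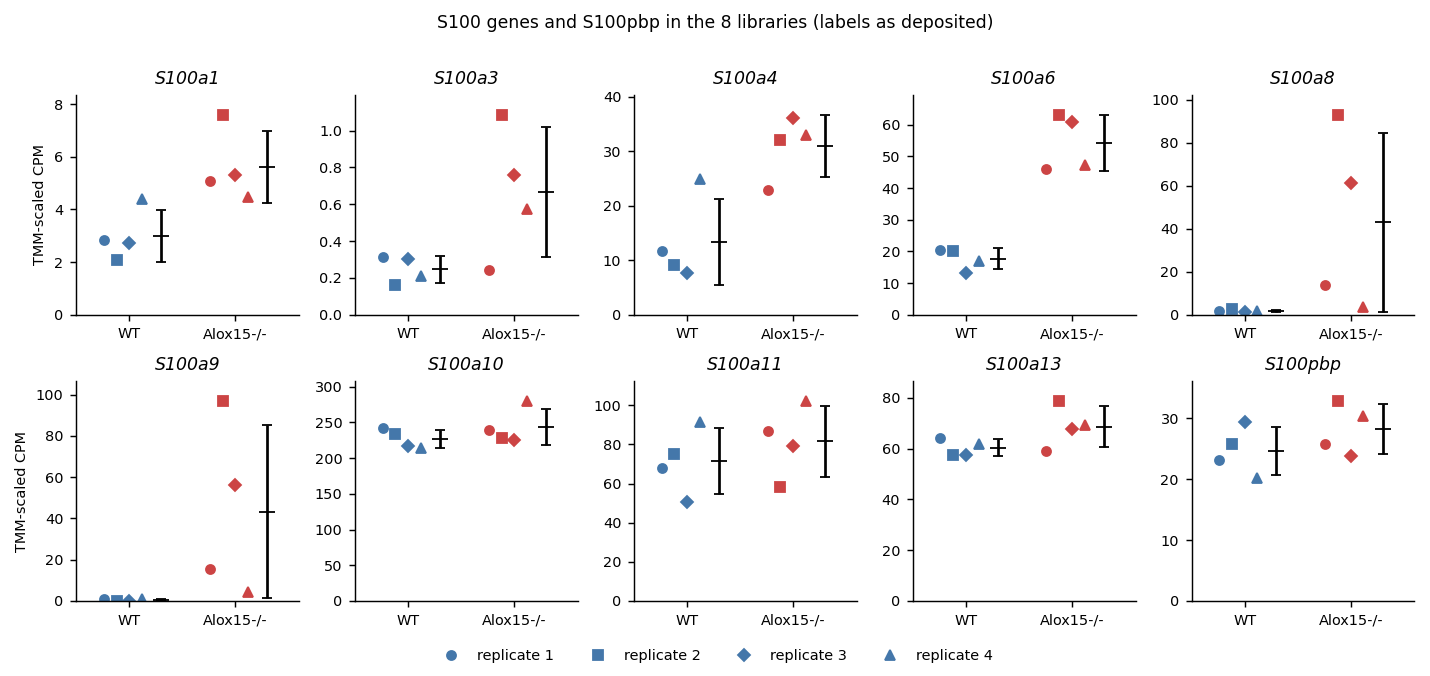
Level of each of the 10 genes in TMM-scaled CPM (y axis, from 0) in the 4 libraries labelled WT (blue) and the 4 labelled Alox15-/- (red), with a marker shape per replicate number and the mean ± SD in black. S100a8 and S100a9 are spread widely among the libraries labelled Alox15-/-, from 3.60 to 93.1 and from 4.46 to 96.9 CPM, whereas S100a6 is at 46.1 to 63.0 CPM in all 4 of them.

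S100a6 codes for calcyclin, which accumulates in proliferating cells and binds the ubiquitin ligase adaptor CacyBP. It was at 46.1, 63.0, 60.9 and 47.2 CPM in the libraries labelled Alox15-/- 1 to 4 and at 20.5, 20.02, 13.3 and 17.0 CPM in those labelled WT 1 to 4. The lowest of the former was above the highest of the latter, and among the former, libraries 2 and 3 were the higher ones. The mean was 54.3 ± 8.88 CPM against 17.7 ± 3.33 CPM (mean ± SD, n = 4 each), a 3.08-fold difference (log2 fold change 1.62, SE 0.161). S100a6 (ENSMUSG00000001025.8) lies on the plus strand of chromosome 3 from 90612882 to 90624181, overlaps no other annotated gene, and its last 300 transcript bases matched no other gene. It was called in all 17 alternative settings, with log2 fold changes from 1.41, without the libraries labelled Alox15-/- 2 and 3, to 1.70. The coefficient of variation was 16.3% in the former group and 18.8% in the latter.

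S100a4 codes for a protein that binds non-muscle myosin and is linked to cell motility. It was at 22.9, 32.0, 36.1 and 32.9 CPM in the libraries labelled Alox15-/- 1 to 4 and at 11.8, 9.13, 7.67 and 24.97 CPM in those labelled WT 1 to 4. The groups overlapped, because the library labelled WT 4 was above the library labelled Alox15-/- 1. The mean was 31.0 ± 5.66 CPM against 13.4 ± 7.91 CPM (mean ± SD, n = 4 each), a 2.41-fold difference (log2 fold change 1.27, SE 0.286). Without the library labelled WT 4 the log2 fold change was 1.73 and the gene stayed called, whereas it was not called in any of the 7 fits that left out another single library. It was also not called with DESeq2, with library totals unscaled, in the robust quasi-likelihood fit, or without the libraries labelled Alox15-/- 2 and 3. S100a4 (ENSMUSG00000001020.8, chromosome 3, 90603771 to 90606045, plus strand) shares exons with the annotated gene Gm42674, whose transcript matched 268 bases of its 3′ end at 97.8% identity. Gm42674 had 47 and 39 counts in the libraries labelled Alox15-/- and WT against 633 and 327 for S100a4. How reads in the shared stretch were assigned is not given in the sources used here.

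S100a8 and S100a9 code for the subunits of calprotectin. S100a8 (ENSMUSG00000056054.9, chromosome 3, 90668978 to 90670035, plus strand) was at 13.8, 93.1, 61.5 and 3.60 CPM in the libraries labelled Alox15-/- 1 to 4 and at 1.57, 2.56, 1.21 and 1.68 CPM in those labelled WT 1 to 4. S100a9 (ENSMUSG00000056071.12, chromosome 3, 90692632 to 90695721, minus strand) was at 15.7, 96.9, 56.4 and 4.46 CPM and at 0.941, 0, 0.202 and 0.839 CPM in the same order. For both genes the libraries labelled Alox15-/- 2 and 3 were high, 1 was intermediate and 4 was low, though still above every library labelled WT. The mean of S100a8 was 43.0 ± 41.9 CPM against 1.75 ± 0.574 CPM (mean ± SD, n = 4 each), a fitted log2 fold change of 4.61 (SE 0.795), which was 3.92 without the library labelled Alox15-/- 2 and 3.55 with limma-voom. For S100a9 it was 43.4 ± 42.1 CPM against 0.495 ± 0.465 CPM (mean ± SD, n = 4 each), a fitted log2 fold change of 6.51 (SE 0.960), which was 5.87 with limma-voom. Both genes lost their call with limma-voom and in the robust quasi-likelihood fit. The SD among the libraries labelled Alox15-/- was about as large as their mean, with a coefficient of variation of 97.4% for S100a8 and 97.1% for S100a9, against 10.3% for S100a10. In the library labelled WT 2, 0 of 6318595 counts fell on S100a9, which allows a level of up to 0.475 CPM by counting error.

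Reads on S100a8 and S100a9 stood in nearly 1 ratio in the libraries labelled Alox15-/-, although S100a8 itself differed 25.9-fold among them. The counts were 57 and 65, 343 and 357, 325 and 298, and 25 and 31 in libraries 1 to 4, a ratio of S100a9 to S100a8 between 0.917 and 1.24. In the libraries labelled WT they were 10 and 6, 16 and 0, 12 and 2, and 8 and 4. Summed over a group, S100a9 held 50.03% of the reads of the pair in the libraries labelled Alox15-/- (751 of 1501, 95% exact binomial interval 47.5% to 52.6%) and 20.7% in those labelled WT (12 of 58, interval 11.2% to 33.4%). The intervals cover counting error only and not the spread between libraries. For single libraries labelled WT 1 to 4 they were 15.2% to 64.6%, 0% to 20.6%, 1.78% to 42.8% and 9.92% to 65.1%. Those of WT 1 and WT 4 thus hold the 50.03% of the other group, and those of WT 2 and WT 3 do not. These are ratios of reads, which depend on how well each 3′ end was captured and not only on molecules.

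Genes of other cells moved with S100a8 and S100a9. The summed level of 15 neutrophil markers, which leave out both genes, was 53.6, 218.5, 102 and 19.6 CPM in the libraries labelled Alox15-/- 1 to 4 and between 4.23 and 9.65 CPM in those labelled WT. All 15 had a higher mean in the libraries labelled Alox15-/-, and the 4 libraries came in the same order, 2, 3, 1 and 4, as for S100a8 and S100a9. Ngp, Mpo and Ctsg were the 3 tested of the 15, with Ngp and Ctsg called higher. Only 5 of the 15 had 2 or more counts in every library, so several of the higher means rest on few reads. The defining genes Ly6g and Mmp8 had 1 and 2 counts in all 8 libraries together. Csf3r had 5 and 5 counts in the libraries labelled Alox15-/- and WT, Mmp9 2 and 1, and Cxcr2 14 and 2. The same order held for the sums of 16 myeloid markers (244.0 to 425 CPM against 167 to 206 CPM), 9 eosinophil markers (31.9 to 131 CPM against 2.04 to 12.5 CPM) and 11 NK and γδ T-cell markers (103 to 222 CPM against 37.3 to 59.5 CPM). It also held for S100a1 and for the sum of 7 dendritic cell markers, whose groups overlapped. Sums of 10 erythroid markers (919.9 to 3523 CPM against 73.4 to 141 CPM) and 10 mast cell and basophil markers (146 to 376 CPM against 59.9 to 85.8 CPM) were also higher in all 4 libraries labelled Alox15-/-. The negative selection of naïve CD4+ T-cells is meant to remove such cells before the culture. The part of these cells in the levels of S100a8, S100a9, S100a4 and S100a6 was not tested, and in bulk RNA more cells of a type and more RNA per cell cannot be told apart. Sums of 9 B-cell markers (10.1 to 12.9 CPM against 12.4 to 33.5 CPM), the dendritic cell markers (24.7 to 36.6 CPM against 23.3 to 31.1 CPM) and the CD8 genes Cd8a and Cd8b1 (12.1 to 21.9 CPM against 21.5 to 31.8 CPM) overlapped between the groups. Of the B-cell markers, Ms4a1 was called lower (log2 fold change -2.64, SE 0.438, edgeR adjusted p = 0.00413). The most abundant genes of these lists were Ctsg (neutrophil), Ctss (myeloid), Prg2 (eosinophil), Trdc (NK and γδ T-cell), Hbb-bs (erythroid), Mcpt8 (mast cell and basophil), Cd79b (B-cell), Ccr9 (dendritic cell) and Cd8b1, and Il2ra led the T-cell and Treg markers.

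**Figure D2:**
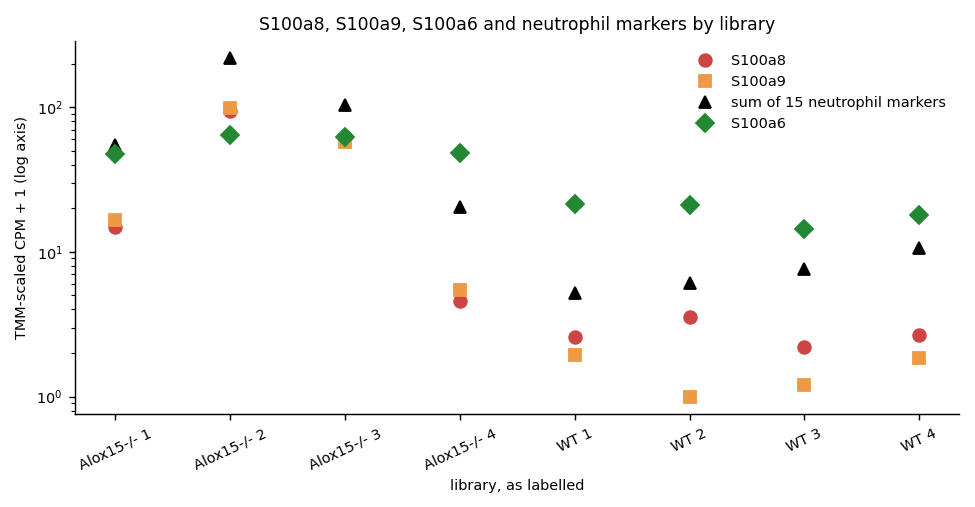
Levels of S100a8, S100a9, S100a6 and the sum of 15 neutrophil markers (which include neither S100a8 nor S100a9) in each library, as TMM-scaled CPM plus 1 on a log axis, with libraries named by their labels on the x axis. In the libraries labelled Alox15-/-, S100a8, S100a9 and the marker sum are highest in library 2 and lowest in library 4, while S100a6 stays between 46.1 and 63.0 CPM and is also highest in libraries 2 and 3.

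The libraries labelled Alox15-/- 2 and 3 held the most S100a8 and S100a9, and the comparison was repeated without them, an alternative chosen after seeing the data. S100a6 was then called alone among the 10 genes, and the number of genes called in all fell from 158 to 60. S100a8 and S100a9 could not pass the filter of 4 libraries in this fit, since only 1 and 0 libraries labelled WT reached 2 CPM. No other pair of libraries was left out, so the fall in calls cannot be told apart from that of a smaller group. In the remaining libraries labelled Alox15-/- 1 and 4, S100a8 was at 13.8 and 3.60 CPM and S100a9 at 15.7 and 4.46 CPM, above the highest WT-labelled values of 2.56 and 0.941 CPM. With limma-voom S100a4 and S100a6 were called, and with edgeR's robust quasi-likelihood fit S100a6 alone.

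S100a10, S100a11 and S100a13 were not called. S100a10 codes for p11, which no longer binds calcium and forms a complex with annexin A2. Its level was 239.0, 228.8, 226 and 280.0 CPM in the libraries labelled Alox15-/- and 242, 233, 217 and 214 CPM in those labelled WT, with overlapping groups (log2 fold change 0.10, SE 0.099). S100a11, whose protein binds annexins A1 and A2, was at 86.7, 58.4, 79.4 and 102 CPM against 68.0, 75.3, 50.7 and 91.3 CPM (log2 fold change 0.21, SE 0.177). Its 3′ end matched 3 other genes of the table, of which Gm12854 and Gm7665 had 99 and 74 counts over all 8 libraries against 3546 for S100a11. S100a13, which takes part in the secretion of FGF1 and interleukin 1α, was at 59.1, 78.7, 67.5 and 69.2 CPM against 64.3, 57.3, 57.6 and 61.9 CPM (log2 fold change 0.19, SE 0.109). The groups overlapped for all 3 genes.

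S100a1, known for calcium handling in heart muscle, was at 5.07, 7.60, 5.30 and 4.46 CPM in the libraries labelled Alox15-/- 1 to 4 and at 2.82, 2.08, 2.72 and 4.41 CPM in those labelled WT. The groups did not overlap, but the library labelled Alox15-/- 4 was only just above the library labelled WT 4. The mean was 5.61 ± 1.38 CPM against 3.01 ± 0.988 CPM (mean ± SD, n = 4 each), a log2 fold change of 0.90 (SE 0.286) that was called in 0 of the 17 alternative settings. Its neighbour S100a13, whose start lies in the same window, had the smaller log2 fold change of 0.19. S100a3, a protein of the hair cuticle, was at 0.241, 1.09, 0.756 and 0.575 CPM against 0.314, 0.160, 0.303 and 0.210 CPM, from 13 and 7 counts, too few for a comparison, and the 3′ end of its annotated transcripts matched 56 other genes of the table. S100pbp was at 25.8, 32.8, 23.8 and 30.4 CPM against 23.2, 25.8, 29.4 and 20.1 CPM (log2 fold change 0.18, SE 0.152), with overlapping groups.

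**Figure D3:**
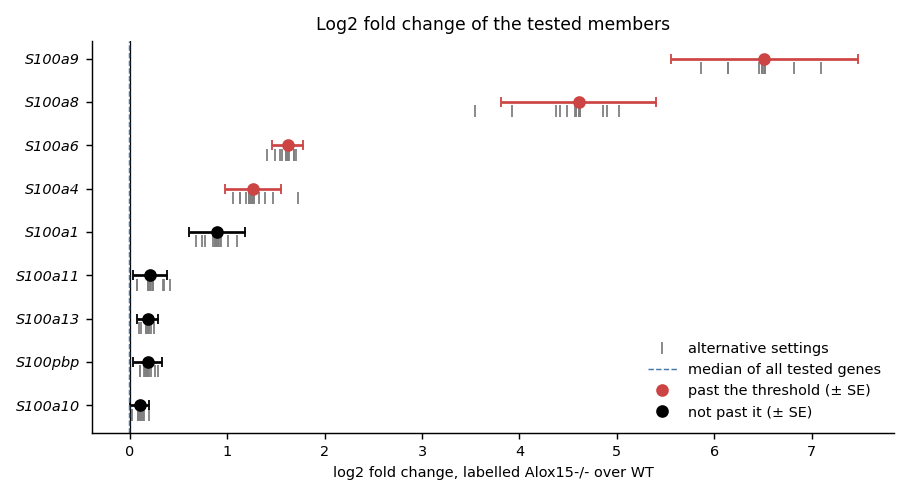
Log2 fold change of the libraries labelled Alox15-/- over those labelled WT (x axis) for the 9 tested genes, as points with SE, red where called and black where not, with grey ticks for the alternative settings and a dashed line at the median of all tested genes (-0.0075). S100a9 and S100a8 lie at 6.51 and 4.61 with the widest errors, S100a6 and S100a4 at 1.62 and 1.27, and S100a10, S100a11, S100a13 and S100pbp between 0.10 and 0.21.

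The reads on the 9 S100 genes made up 0.0495% to 0.0653% of all counts in the Alox15-/- group by label and 0.0365% to 0.0413% in the WT group. Summed, they were at 572 ± 72.7 CPM and 395 ± 30.1 CPM in these groups, and without S100a8 and S100a9 at 485 ± 34.8 CPM and 393 ± 29.5 CPM (mean ± SD, n = 4 each). The ranges of the sums did not overlap either with these genes or without them, the latter being 459 to 536 CPM against 349.7 to 414 CPM. The share of S100a10 in the S100 reads was 43.3 ± 8.14% under the Alox15-/- label and 57.6 ± 4.40% under the WT label, and that of S100a6 was 9.48 ± 0.651% and 4.47 ± 0.624% (mean ± SD, n = 4 each). Together S100a8 and S100a9 took 6.03%, 28.8%, 19.8% and 1.48% of these reads in the libraries labelled Alox15-/- 1 to 4 and 0.402% to 0.641% in those labelled WT. Shares are of reads counted, which were not divided by transcript length because each read marks a 3′ end.

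**Figure D4:**
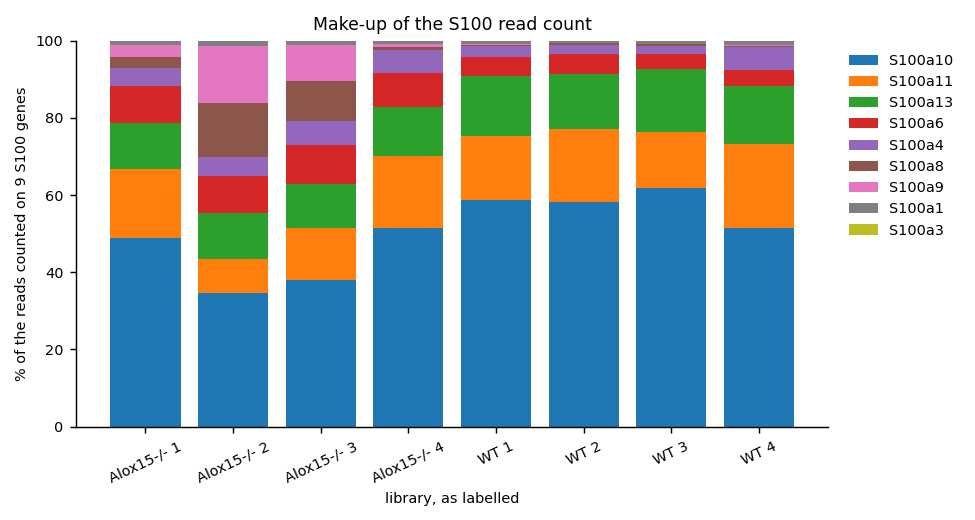
Share of each of 9 S100 genes in the reads counted on all 9 (y axis, percent) for each library, named by its label on the x axis. S100a8 and S100a9 together fill 28.8% of the bar of the library labelled Alox15-/- 2 and at most 0.641% of any bar labelled WT, where S100a10 takes 51.5% to 61.9%.

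Among the remaining S100 genes, S100a5, S100a7a, S100a14, S100a16, S100b, S100g and S100z were listed and 0 of the 7 passed the filter. S100a16 was the most counted, at 1.45, 2.71, 2.65 and 2.45 CPM in the libraries labelled Alox15-/- 1 to 4 and 0.784, 0.320, 1.009 and 1.26 CPM in those labelled WT, from 47 and 23 counts. Its groups did not overlap, and a fit without the filter gave a log2 fold change of 1.43 (SE 0.480). The SEs of that fit are not on a par with the others. That of S100a8 was 0.222 there and 0.795 with the filter, and that of S100a1 0.310 and 0.286. The others had between 1 and 6 counts over all 8 libraries.

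Proteins that S100 proteins bind, and their receptors, were listed as 28 genes, of which 23 were tested and 0 were called by edgeR's quasi-likelihood test. At an unadjusted p under 0.05 there were 2, Anxa2 and Sugt1, where 7.84% of all genes tested (996 of 12700) had such a p, while DESeq2 called 1 and limma-voom 0, and the median log2 fold change was -0.013 against -0.0075 over all genes tested. Anxa2, the annexin that binds p11, was at 42.2, 56.2, 48.6 and 36.3 CPM in the libraries labelled Alox15-/- 1 to 4 and at 25.9, 35.4, 28.6 and 33.4 CPM in those labelled WT. It was higher in all 4 of the former, and the difference did not pass the threshold (log2 fold change 0.57, SE 0.150, edgeR adjusted p = 0.113). Anxa2 passed in 3 of the 17 alternative settings, whose adjusted p ran from 0.0141, in the fit without the filter, to 0.845. Cacybp, the partner of calcyclin, had a log2 fold change of -0.13 (SE 0.099, edgeR adjusted p = 0.819) and Anxa6 one of -0.12 (SE 0.092, edgeR adjusted p = 0.828). Anxa1 was below the filter, at 4.59, 4.61, 4.54 and 0.719 CPM against 0, 0.480, 0.403 and 1.89 CPM. The receptor genes Ager (0.722 ± 0.133 and 0.780 ± 0.899 CPM) and Tlr4 (1.54 ± 0.290 and 1.26 ± 0.916 CPM, mean ± SD, n = 4 each) were also below the filter.

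Other EF-hand proteins, such as calmodulin, STIM and calpain subunits, were listed as 44 genes, of which 41 were tested and 0 were called by edgeR's quasi-likelihood test. Among these, 2 had an unadjusted p under 0.05, Rcn3 and Rcn2 of the reticulocalbins, DESeq2 and limma-voom called 0 each, and the median log2 fold change was 0.010. The genes that lie between the S100 genes of chromosome 3 gave 6 tested genes of 28 in the table, 0 of which were called by edgeR, DESeq2 or limma-voom or had an unadjusted p under 0.05. Of 23 genes typical of antigen-experienced T-cells, 19 were tested and 1 was called, Ly6c2, which is also expressed by monocytes. Ly6c2 was at 47.3, 95.3, 63.5 and 26.8 CPM against 7.996, 8.65, 10.1 and 9.86 CPM (log2 fold change 2.65, SE 0.298, edgeR adjusted p = 1.36e-04), with the libraries labelled Alox15-/- in the order of S100a8. At an unadjusted p under 0.05 there were 7 of the 19, and the median log2 fold change was 0.30. Beside Ly6c2 these were Ccl5 (log2 fold change 1.21), Crip1 (0.56), Ifng (1.20), Cxcr6 (1.02), Eomes (0.66) and Itgb1 (-0.24), none of which was called by edgeR's quasi-likelihood test with the filter. DESeq2 called 2 genes of this list, limma-voom 1 and the fit without the filter 4. NK cells also express Ccl5, Ifng and Eomes, and the summed NK and γδ T-cell markers were higher in all 4 libraries labelled Alox15-/-, whose part in these values was not tested. Of 13 genes typical of naïve T-cells, 12 were tested and 0 were called by edgeR's quasi-likelihood test, with 2 at an unadjusted p under 0.05, 1 called by DESeq2, 0 by limma-voom and a median of 0.14.

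The genes whose pattern over the 8 libraries was most like that of each called S100 gene were found by the root mean square difference of log2(CPM + 1), centred on the WT-labelled mean, among 12691 other genes. For S100a8 they were Ngp (0.645), a neutrophil granule gene, the pseudogene Cd63-ps (0.735) and Cd63 (0.788), which marks granules and lysosomes. For S100a9 they were the hemoglobin genes Hba-a1 (0.835), Hbb-bt (0.872) and Hba-a2 (0.900). The nearest to S100a6 were Tcrg-C1 (0.299), a constant region of the γδ T-cell receptor, the cytokine gene Il6 (0.306) and the pseudogene Gm5292 (0.327), and those nearest to S100a4 were Isg15 (0.341), Cxxc5 (0.346) and Gm16702 (0.386). The distances are a description, and genes of high and of low counts enter them with different counting error. The 1 added to the CPM also shrinks differences between low levels. Il6 (3.13 against 0.496 CPM) and Tcrg-C1 had log2 fold changes of 2.50 and 2.10, against 1.62 for S100a6.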

How the data were processed

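The deposited values are whole-number counts for each gene symbol in each library, not normalized, from MACE-seq reads that were cleaned and trimmed per the labels. The submitters' processing notes name Bowtie, edgeR and GRCm38, while the annotation, counting tool, strand setting and removal of duplicates are not given in the sources used here. Columns were assigned to 4 libraries labelled Alox15-/- and 4 labelled WT by their names. The series text names 4 mice per genotype but the labels do not tie each library to a mouse, so p-values measure the spread between these libraries.

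A gene was kept where 4 or more libraries reached 2 CPM, the filter of the study's methods, scaled by TMM and compared with edgeR 4.0.16 in R 4.3.3 (glmQLFit and glmQLFTest, two-sided, group as the only term, Benjamini–Hochberg adjustment over 12700 genes, threshold 0.05). The study's methods name edgeR and not its test. The biological coefficient of variation was 14.5%. The SE is the size of the log2 fold change divided by the square root of F. The steps were tested on simulated data.

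The members and lists were chosen with earlier results of these data known, so no p is given for a member. Named genes are all members, Alox15, called genes of the partner, EF-hand and T-cell lists, 6 annexin, partner and receptor genes, the 3 genes nearest to each called member, and the most abundant gene of each marker list. Rcn3, Rcn2, Sugt1, S100a16, Ms4a1, Ngp, Mpo, Elane, Lyz2, Ly6g, Mmp8, Csf3r, Mmp9, Cxcr2, Chil3, Prtn3 and the uncalled antigen-experienced T-cell genes were named after their values were seen. The values of Cd4, Cd3g and Foxp3 were also picked after being seen. Alternatives were other scaling (RLE factors, library totals), no filter or filterByExpr, DESeq2 1.42.0, limma-voom (limma 3.58.1), a robust fit, the replicate number as a block, each library left out, and a fit without 2 libraries. Positions are from GENCODE M21, promoter windows from RefSeq, and 3′ ends (300 bases) were compared by blastn 2.17.0 at 90% identity or more over 50 bases or more.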

Additional observations from a re-analysis of the deposited data

Results flagged for a closer look

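In 56 groups of 4 libraries that were examined for a library far from the other 3, 4 were found, where chance gives about 1 in 20. Anxa1 was at 0.719 CPM in the library labelled Alox15-/- 4, far below the other 3 of its group. Ager was at 2.12 CPM in the library labelled WT 3, far above the others of its group. The summed NK and γδ T-cell markers were at 37.3 CPM in the library labelled WT 2, far below the other 3 of its group, as were Cd8a and Cd8b1 together, at 21.5 CPM. The test finds 1 library far from the others and not a pair of high libraries, as for S100a8 and S100a9.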

How the results depend on the processing

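The 9 tested genes kept a log2 fold change above 0 in every one of the 17 alternatives that gave them a value. The number called among them was 4, of 158 genes called in all. It became 3 with DESeq2 (194 genes in all) and with library totals unscaled (148 in all), both without S100a4. With limma-voom it was 2 (140 in all) and with the robust fit 1 (145 in all). Without the libraries Alox15-/- 2 and 3 (chosen after seeing the data) it was 1, and S100a8 and S100a9 could not pass the filter there. Over the fits that each left out 1 library it was 2 to 4. When a library labelled Alox15-/- was left out, S100a9 had too few libraries above the filter to be tested. Without the filter, 388 genes were called in all, 298 higher and 90 lower, with 2 partner genes, 1 EF-hand gene, 4 antigen-experienced and 1 naïve T-cell gene among them. DESeq2 called 1 partner gene, 2 antigen-experienced and 1 naïve T-cell gene. Without the libraries Alox15-/- 2 and 3, 60 genes were called in all, 53 higher and 7 lower. With each library left out, the calls over all genes ran from 86 to 172 (74 to 148 higher, 12 to 24 lower), those of partner, EF-hand and naïve T-cell genes from 0 to 1 and those of antigen-experienced T-cell genes from 1 to 2. The cause of these shifts was not tested beyond the smaller number of libraries or genes. The mean log2 ratio of S100a9 to S100a8 reads (0.5 added) was 2.35 higher in the libraries labelled Alox15-/-, 2.03 with 1 added and 1.42 to 2.87 with each library left out. The value of the library labelled WT 2 (0 counts of S100a9) is set by the number added, the SD among WT-labelled libraries was 2.00, and 1.42 is the difference without that library. The labels do not say whether replicate numbers pair the libraries. The deviations of same-numbered libraries correlated at 0.067, 0.179, -0.198 and -0.017 across genes and 3 of 8 libraries correlated best with their own number. With so few libraries this cannot decide the question. With the replicate number as a block, 4 of the 9 genes and 146 genes in all were called. The SE went from 0.795 to 0.464 for S100a8, from 0.960 to 0.610 for S100a9, from 0.286 to 0.253 for S100a4 and from 0.161 to 0.166 for S100a6. Depth limits S100a1, S100a3, S100a16 and the WT-labelled levels of S100a8 and S100a9, which rest on 46 and 12 counts.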

Other observations

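Granule genes of myeloid cells also varied among the libraries labelled Alox15-/-, 21.8-fold for Mpo, 20.6-fold for Ngp, 4.47-fold for Ctsg and 4.16-fold for Lyz2, against 25.9-fold for S100a8 and 21.7-fold for S100a9. Elane, neutrophil elastase, was at 0.966, 14.4, 5.86 and 0.288 CPM in the libraries labelled Alox15-/- 1 to 4 and at 0.157 to 0.303 CPM in those labelled WT, from 4, 53, 31 and 2 counts in the former and 1 to 3 in the latter. Mpo, myeloperoxidase, was at 4.35, 28.2, 11.7 and 1.29 CPM against 0.627 to 2.94 CPM, so that the library labelled Alox15-/- 4 lay within the WT-labelled range, whereas S100a8 and S100a9 of that library lay above it. Ngp was at 12.3, 44.5, 20.2 and 2.16 CPM against 0.627 to 1.92 CPM, and Lyz2, lysozyme, lowest in library 1 and not in library 4, at 15.4, 64.3, 31.6 and 17.3 CPM against 1.51 to 3.99 CPM. These genes were picked after their values were seen and are given without a test.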
